A study of Mus musculus with 2 samples.

Results

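The genes described here are 10 members of 3 families of calcium- or sugar-binding proteins: S100a4, S100a6, S100a8, S100a9, S100a10 and S100a11, the galectin genes Lgals1 and Lgals3, and the annexin genes Anxa1 and Anxa2. They were taken by symbol, and each matched 1 of the 32285 features of the count matrices. The data are single-cell RNA-seq of live singlet cells sorted from the dorsal meninges of male wild-type C57BL/6 mice (C57BL/6J in the study's methods) aged 10 weeks, with 2 libraries. One library came from mice given a mild closed-skull traumatic brain injury (TBI) and the other from mice given a Sham procedure, both collected 1 week later. Each library was a pool of 5 mice, so there is 1 sample per group, no replicate error and no test. The library and the condition cannot be told apart, and every interval given below is a 95% interval that covers counting error only.

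S100 proteins are small calcium sensors with paired EF-hand motifs. S100a8 and S100a9 form calprotectin, the main cytosolic protein of neutrophils, which is also released as a ligand of the receptor Tlr4. S100a10 and S100a11 bind the tails of Anxa2 and Anxa1 respectively, and annexins themselves bind acidic membrane phospholipids when calcium rises. Galectins bind beta-galactoside sugars on cell-surface proteins, and Lgals3 is a classical macrophage antigen.

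After filters on barcodes, 2043 Sham cells with 7866611 unique molecular identifiers (UMIs) and 3773 TBI cells with 13940740 UMIs remained. The median cell had 2764 UMIs in Sham and 2663 in TBI, and the floor of 3 UMIs over a whole library was 0.3814 and 0.2152 CPM (UMIs of a gene per 1000000 UMIs). The libraries shared 20 barcodes, 14 of them among the filtered cells. Clustering without the family genes gave 28 clusters, of which 25 were named from marker genes as 19 classes and 3 were not named. The 17 classes compared between libraries were those with enough cells and UMIs in each library, and the neutrophil-like class. That class was kept as an exception, since its 16 Sham cells and 46126 Sham UMIs were under both limits. Levels are UMIs of a gene summed over the cells of a class, scaled to the total UMIs of those cells as CPM. They are given gene by gene, since genes of different length and 3′ end cannot be ranked against each other. The fibroblast-like share of cells was 5.73% in Sham and 20.1% in TBI, and the summed level of 16 fibroblast marker genes was higher in TBI in 16 of the 16 other compared classes. Its range over those classes was 5.718 to 1448 CPM in Sham and 196.1 to 3480 CPM in TBI. Its part in the results below was not tested.

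The S100 genes lie in 2 groups on mouse chromosome 3 (GENCODE vM21 on GRCm38). S100a4 (ENSMUSG00000001020) is at chr3:90603771-90606045, S100a6 (ENSMUSG00000001025) at chr3:90612882-90624181 and S100a8 (ENSMUSG00000056054) at chr3:90668978-90670035, all on the plus strand, and S100a9 (ENSMUSG00000056071) is at chr3:90692632-90695721 on the minus strand. S100a11 (ENSMUSG00000027907) is at chr3:93520488-93526287 and S100a10 (ENSMUSG00000041959) at chr3:93555080-93564643, both on the plus strand. Lgals1 (ENSMUSG00000068220) is at chr15:78926725-78930465, Lgals3 (ENSMUSG00000050335) at chr14:47367751-47386160, Anxa2 (ENSMUSG00000032231) at chr9:69453620-69491795, all on the plus strand, and Anxa1 (ENSMUSG00000024659) at chr19:20373428-20390944 on the minus strand. All 10 are protein-coding, and UMIs were counted per gene, so exons and transcript isoforms are not separated. The annotated spans of S100a4, Anxa1 and Anxa2 overlap other genes (Gm42674, 1500015L24Rik, and Mir3109 with Gm16144).

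S100a8 and S100a9 were the pair whose levels ran most closely together, and their promoters are shown for that reason. That closeness is set largely by the neutrophil-like class, as given below. The sequences are from RefSeq on GRCm38.p6 and run from 80 bases before the listed start to 20 after it, on the gene's strand, with the letters TATAAA in capitals.
S100a8 promoter, chr3:90668991-90669090, plus strand: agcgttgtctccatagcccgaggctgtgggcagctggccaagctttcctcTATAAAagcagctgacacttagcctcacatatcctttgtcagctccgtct
S100a9 promoter, chr3:90695702-90695801, minus strand: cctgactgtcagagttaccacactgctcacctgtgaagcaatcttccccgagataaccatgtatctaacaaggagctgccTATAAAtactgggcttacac
The letters begin 30 bases before the listed start of S100a8, and at the listed start itself in S100a9. Of the 8 members with a listed promoter, 5 held TATAAA on their own strand (S100a4, S100a8, S100a9, Anxa1 and Anxa2), and S100a6, S100a11 and Lgals3 did not. Among all 32851 promoters in windows of the same length, 3.7% held it on the gene's strand and 5.31% on either strand. A match of letters is a description of the window and not of a bound factor.

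S100a8 and S100a9 UMIs lay almost entirely in the neutrophil-like cells. These were 16 Sham and 26 TBI cells, 0.783% and 0.689% of the cells of each library, and S100a8 stood at 120865 CPM in the Sham cells and 131855 CPM in the TBI cells. S100a9 stood at 139813 CPM and 155473 CPM. The class held 98.85% of the Sham S100a8 UMIs (98.53 to 99.11, exact binomial) and 98.42% of the TBI ones (98.19 to 98.63). For S100a9 it held 99.09% (98.83 to 99.31) and 98.61% (98.41 to 98.79). All 42 cells had a UMI of the pair. The log2 ratio of TBI to Sham within the class was 0.13 for S100a8 and 0.15 for S100a9, under the fold of 1.5 (0.58 on the log2 scale) that was used throughout to call a difference, in genes with at least 100 UMIs over both libraries. In single cells the pair made up between 1.51% and 39.8% of the UMIs in Sham, with a median of 22.6%, and between 3.75% and 38.2% in TBI, with a median of 26.9%. The libraries overlapped over almost the whole of this range.

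Outside the neutrophil-like cells both genes were sparse, with summed levels of the pair from 2.823 CPM (proliferating cells, TBI) to 83.12 CPM (pineal-like cells, Sham) over the other named classes. The other cells together held 65 Sham and 196 TBI UMIs of S100a8 and 59 and 203 UMIs of S100a9, which is 8.312 and 14.15 CPM for S100a8 and 7.544 and 14.66 CPM for S100a9. S100a8 was 14542-fold higher in the neutrophil-like cells than elsewhere in Sham and 9316-fold higher in TBI, and S100a9 was 18532-fold and 10606-fold higher. In cells thinned to 1000 UMIs each, 2.5% of the other Sham cells and 3.68% of the other TBI cells had a UMI of either gene, against 100% of the neutrophil-like cells in both libraries. In monocyte-like cells S100a8 had 1 Sham UMI and 2 TBI UMIs and S100a9 had 0 and 1, at or under the floor. The markers that named this class were Treml4, Ear2, Cd300e, Plac8, Ace, Chil3 and Gngt2. Kinds of monocyte were not separated, so these counts describe this class and not monocytes in general. The share of S100a8 among the UMIs of the pair was 46.4% in Sham and 45.9% in TBI neutrophil-like cells, and 52.4% (43.3 to 61.5) and 49.1% (44.1 to 54.1) elsewhere. The summed level of 14 other neutrophil genes was 66.24 CPM in Sham and 58.56 CPM in TBI outside the class. The pair had 2.71 UMIs per UMI of that list in Sham neutrophil-like cells and 2.42 in TBI, against 0.239 and 0.492 elsewhere, so the pair and the list did not keep 1 ratio across cells. The pooled value elsewhere depends on the classes. Of its 518 Sham list UMIs, 160 were in B-cell-like, 119 in macrophage-like and 115 in monocyte-like cells. In monocyte-like cells 1 list gene, Hp, gave 72 of the 115 Sham and 83 of the 150 TBI list UMIs. The origin of the list UMIs outside the neutrophil-like class was not tested. The ratio was 0.0087 and 0.02 in monocyte-like cells but 1.07 and 1.88 in endothelial-like and 3.33 and 1.6 in ILC2 or Th2-like cells.

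The neutrophil-like cells differed among themselves in the other members. A split at 1% of a cell's UMIs in Ngp, Camp and Ltf, which are secondary granule genes of maturing neutrophils, left 14 cells above (5 Sham, 9 TBI) and 28 below (11 Sham, 17 TBI). No cell fell between 0.777% and 3.36%, and the value of 1% was chosen after the cells were seen. Anxa1, a ligand of formyl peptide receptors that is abundant in neutrophil granules, stood at 3138 CPM in Sham and 5685 CPM in TBI above the split, and at 1275 and 1264 CPM below it. S100a6, known as calcyclin, was at 1950 and 2303 CPM above and 17215 and 14797 CPM below. S100a11 was at 4279 and 3071 CPM above and 9046 and 9241 CPM below. Retnlg, a gene of mature neutrophils that is no member, was at 3281 and 4990 CPM above and 36740 and 31937 CPM below. In summed level the cells rich in granule genes were thus higher in Anxa1 and lower in S100a6 and S100a11 in both libraries. For Anxa1 the Sham side rests on 5 cells above the split, at 0% to 0.478% of a cell's UMIs (median 0.239%). The Sham cells below it overlapped them, at 0% to 0.393% (median 0.101%).
In summed level S100a8 and S100a9 differed less across the split. S100a8 was at 133707 and 148106 CPM above and 110102 and 108449 CPM below, and S100a9 at 147306 and 172199 CPM above and 133533 and 131381 CPM below. The median share of a Sham cell's UMIs went the other way, at 5.9% above and 11% below for S100a8 and 6.75% and 12.2% for S100a9. In TBI the medians were 15.3% above and 8.98% below for S100a8 and 19% and 10.9% for S100a9. Over the whole class Anxa1 was 2125 CPM in Sham and 3873 CPM in TBI (log2 ratio 0.86, interval 0.54 to 1.20), the 1 member of 6 with enough UMIs there that passed 1.5-fold. Of all such genes in the class, 16.1% passed. The cells above the split held 45.6% of the class UMIs in Sham and 59% in TBI, and 3 cells held 67.3% of the Sham and 58.2% of the TBI Anxa1 UMIs. The part of this mix of cells in the Anxa1 ratio was not tested. Below the split Anxa1 was near equal between the libraries. S100a4, which binds the nonmuscle myosin heavy chain, had 0 UMIs in both libraries of the class. The exact Poisson interval of a count of 0 reaches 79.97 CPM in Sham and 39.8 CPM in TBI. Lgals1 had 1 Sham UMI and 0 TBI UMIs, and S100a10 had 1 and 3.

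**Figure D1:**
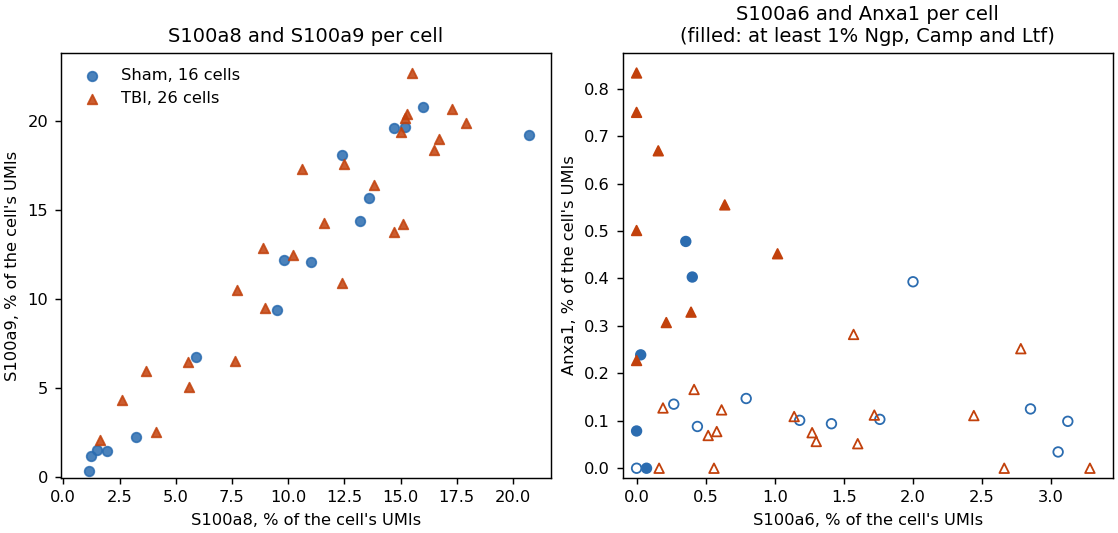
Each point is 1 neutrophil-like cell (16 Sham circles, 26 TBI triangles), with axes in percent of the cell's UMIs, S100a9 against S100a8 on the left and Anxa1 against S100a6 on the right, where filled points have at least 1% of their UMIs in Ngp, Camp and Ltf. S100a8 and S100a9 lie along 1 line in both libraries, and the 14 filled points lie at low S100a6 and, for most, at higher Anxa1 than the 28 open ones.

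S100a4, S100a6, S100a10 and S100a11 were each found in several classes, and each ordered the classes differently. S100a4 was highest in the gamma-delta or Th17-like cells (1823 CPM in Sham and 2063 CPM in TBI), of which there were 12 and 28. It was next in the migratory dendritic-like cells (1035 and 1000 CPM), the monocyte-like cells (974.8 and 1001 CPM) and the dendritic-like cells (1026 and 823.2 CPM), and it was at or under the floor in both libraries in 3 classes. S100a6 was highest in neutrophil-like cells (10255 and 7423 CPM), then in gamma-delta or Th17-like (5049 and 4778 CPM) and Schwann-like cells (2827 and 4295 CPM), and lowest in immature B-cell-like cells (3.831 and 25.28 CPM). S100a10 was highest in T, NK and innate lymphocyte classes, with gamma-delta or Th17-like cells first (2127 and 2291 CPM), then NK-like (1392 and 1437 CPM), T-cell-like (1228 and 1145 CPM) and ILC2 or Th2-like cells (1114 and 975.9 CPM). B-cell-like cells (448.5 and 468.4 CPM) came after the proliferating (740 and 872.4 CPM) and dendritic-like cells (881 and 696.2 CPM). It was lowest in neutrophil-like cells (21.68 and 32.37 CPM) and choroid plexus-like cells (48.02 and 18.11 CPM). S100a11 was highest in neutrophil-like cells (6872 and 5600 CPM), then in gamma-delta or Th17-like (2361 and 2172 CPM) and migratory dendritic-like cells (1538 and 1254 CPM), and had no class at the floor in both libraries.

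Many neighbours in these orders could not be separated. The range between the Sham and TBI levels of a class overlapped that of the next class in 13 of 18 pairs for S100a4. It did so in 9 of 18 for S100a6 and for S100a10, and in 10 of 18 for S100a11. These ranges are not counting intervals. With a coarser clustering, at Leiden resolution 0.4, the highest class became the migratory dendritic-like cells for S100a4 and the NK-like cells for S100a10. The order gave the neutrophil-like class first for S100a6 and S100a11 under each of the 4 alternatives tried.

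The 2 galectins were high in different cells. Lgals1 was highest in NK-like cells (2117 CPM in Sham and 1619 CPM in TBI) and plasmacytoid dendritic-like cells (2127 and 1344 CPM), whose Sham-to-TBI ranges overlapped. It was next in gamma-delta or Th17-like cells (1660 and 1021 CPM). At Leiden resolution 1.6 the plasmacytoid dendritic-like cells came first. Lgals1 was lowest in neutrophil-like and endothelial-like cells (13.56 and 37.85 CPM in the latter). Lgals3 was highest in monocyte-like cells (1553 and 1756 CPM) and dendritic-like cells (1025 and 786.2 CPM), and then in neutrophil-like cells (585.4 and 701.3 CPM). It had 0 UMIs in the gamma-delta or Th17-like cells of both libraries, where the exact Poisson interval reaches 86.23 CPM in Sham and 40.06 CPM in TBI. The Pearson correlation of Lgals1 with Lgals3 over the 19 classes of both libraries was 0.00. These 38 points share libraries and cells, so the value is a description. The Sham-to-TBI ranges of adjacent classes overlapped in 11 of 18 pairs for each galectin.

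The annexins were also apart. Anxa1 was highest in neutrophil-like cells, more than any other class in both libraries. Next were pericyte-like cells (139.7 CPM in Sham and 497.4 CPM in TBI) and monocyte-like cells (56.6 and 563 CPM). The pericyte-like class had 23 and 71 cells and was not compared, since its 42946 Sham UMIs were below the limit. The Sham-to-TBI ranges of adjacent classes overlapped in 14 of 18 pairs, and Anxa1 was near or under the floor in plasmacytoid dendritic-like and migratory dendritic-like cells. Anxa2, which with S100a10 forms a cell-surface complex that binds plasminogen and its activator, was highest in NK-like cells (1265 and 1523 CPM). Neutrophil-like (1192 and 1068 CPM), Schwann-like (717.2 and 1008 CPM) and migratory dendritic-like cells (1218 and 502.6 CPM) came next, and immature B-cell-like cells were at or under the floor. The NK-like class came first for Anxa2 under each of the 4 alternatives tried, and the Sham-to-TBI ranges of adjacent classes overlapped in 9 of 18 pairs.

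**Figure D2:**
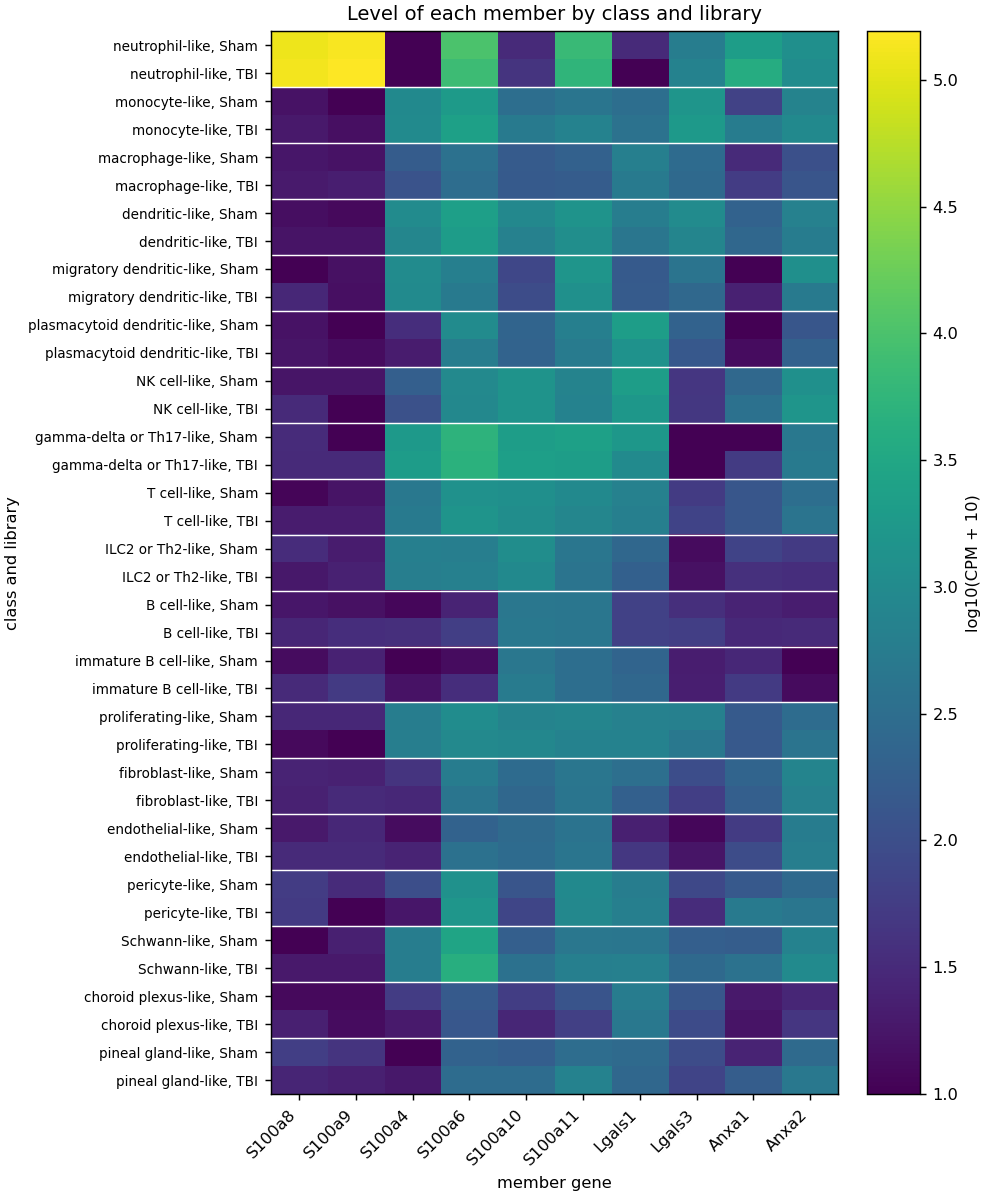
Heat map of the level of each member (columns) in each named class and library (rows), with colour giving log10 of CPM after adding 10. The S100a8 and S100a9 columns are bright in the neutrophil-like rows alone (at or above 120865 CPM), and the other members spread over several classes.

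Genes whose levels tracked each member were found by correlation of log levels over the same 38 points, among 9881 candidate genes, and are a description only. For S100a8 the closest were Retnlg, Ltf and Camp (r = 0.98, 0.97 and 0.97) and for S100a9 Ltf, Retnlg and Camp (0.98, 0.97 and 0.97), all neutrophil genes. Both members stood at or above 120865 CPM in the neutrophil-like class and at most 49.87 CPM in any other named class. That class largely sets these values, and Retnlg, Ltf and Camp are among the markers that named it. S100a4 was closest to Bcl2a1d (0.77), Gpr132 (0.75) and Trerf1 (0.73). S100a6 was closest to Anxa2 (0.77), Fam129a (0.75) and Sept9 (0.73), and Anxa2 to S100a6 (0.77), Tnfrsf1a (0.65) and Mapk3 (0.64). S100a10 was closest to Tmsb10 (0.83), Ssrp1 (0.82) and Gar1 (0.81), and S100a11 to Lyst (0.75), Adam8 (0.74) and Cnn2 (0.71). Lgals1 was closest to Cenpx (0.71), Cdk5rap3 (0.70) and Cope (0.69), and Lgals3 to Csf2ra (0.84), Ccl6 (0.83) and Sirpa (0.83), genes of the myeloid lineage. Anxa1 was closest to Arrdc3 (0.74), G0s2 (0.73) and Pbx2 (0.70). Of the 3 pairs named above as binding partners, S100a8 and S100a9 gave r = 0.97, the highest of all member pairs. S100a11 and Anxa1 gave 0.50, and S100a10 and Anxa2 gave 0.01. These 3 are not a full list of members whose proteins bind each other, and S100a6 with Anxa2 gave 0.77. The value for S100a8 and S100a9 is likewise set largely by the neutrophil-like class and cannot be ranked on equal terms with the others.

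Over all filtered cells, none of the 10 members differed by 1.5-fold between TBI and Sham, where 16.4% of the genes compared did. Of the members, 6 were lower in the TBI library by 0.25 or more on the log2 scale. S100a4 was 359.7 CPM in Sham and 248 CPM in TBI, a log2 ratio of -0.54 (-0.61 to -0.46). Lgals3 was 326.8 and 232.1 CPM (-0.49, -0.57 to -0.42), S100a10 539.9 and 408.7 CPM (-0.40, -0.46 to -0.34), Lgals1 515.1 and 394.2 CPM (-0.39), S100a11 679.2 and 537.8 CPM (-0.34) and S100a6 928.5 and 779 CPM (-0.25). These values are sums over a changed mix of cells. Dendritic-like cells held 17.8% of the UMIs in Sham and 11.6% in TBI, and they were the largest source of S100a4 (50.8% of its UMIs in Sham and 38.6% in TBI) and of Lgals3 (55.9% and 39.4%). When the TBI levels within classes were recombined with the Sham mix of classes, the log2 ratios were nearer to 0 for all 6, at -0.18 for S100a4, -0.24 for Lgals3, -0.08 for S100a10, -0.31 for Lgals1, -0.14 for S100a11 and -0.07 for S100a6.

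The other members were higher in the TBI library or near equal. S100a8 was 717 CPM in Sham and 890.7 CPM in TBI (0.31, 0.27 to 0.36) and S100a9 827.3 and 1048 CPM (0.34, 0.30 to 0.38), and with the Sham mix these were 0.13 and 0.16. Anxa1 was 96.74 and 140.9 CPM (0.54, 0.42 to 0.66), and with the Sham mix of classes the log2 ratio was again 0.54. The largest source of Anxa1 was the dendritic-like class in Sham (36.8% of its UMIs) and the fibroblast-like class in TBI (20.2%). Anxa2 was 370.7 and 385.7 CPM (0.06, -0.01 to 0.12).

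Within classes, the members were compared only where they had 100 or more UMIs over both libraries. This gave 91 pairs of member and class, of which 18 passed 1.5-fold, 11 higher and 7 lower in the TBI library. No member passed in the B-cell-like, immature B-cell-like, T-cell-like, NK-like, ILC2 or Th2-like, dendritic-like and proliferating classes. These compared 3, 3, 7, 6, 5, 8 and 7 members, and 4.78%, 5.8%, 4.69%, 3.76%, 2.75%, 3.26% and 10% of all genes compared in them passed. In the monocyte-like class 3 of 8 members passed, against 8.82% of all genes, and in the macrophage-like class 1 of 8, against 3.43%. In the endothelial-like class 2 of 5 passed, against 5.88%, in the fibroblast-like class 2 of 7, against 11.1%, and in the Schwann-like class 2 of 5, against 16%. In the migratory dendritic-like class 2 of 5 passed, against 10.5%, and in the plasmacytoid dendritic-like class 2 of 3, against 5.93%. The choroid plexus-like class had 1 of 3, against 8.32%, and the pineal-like class 2 of 2, against 25.8%.

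**Figure D3:**
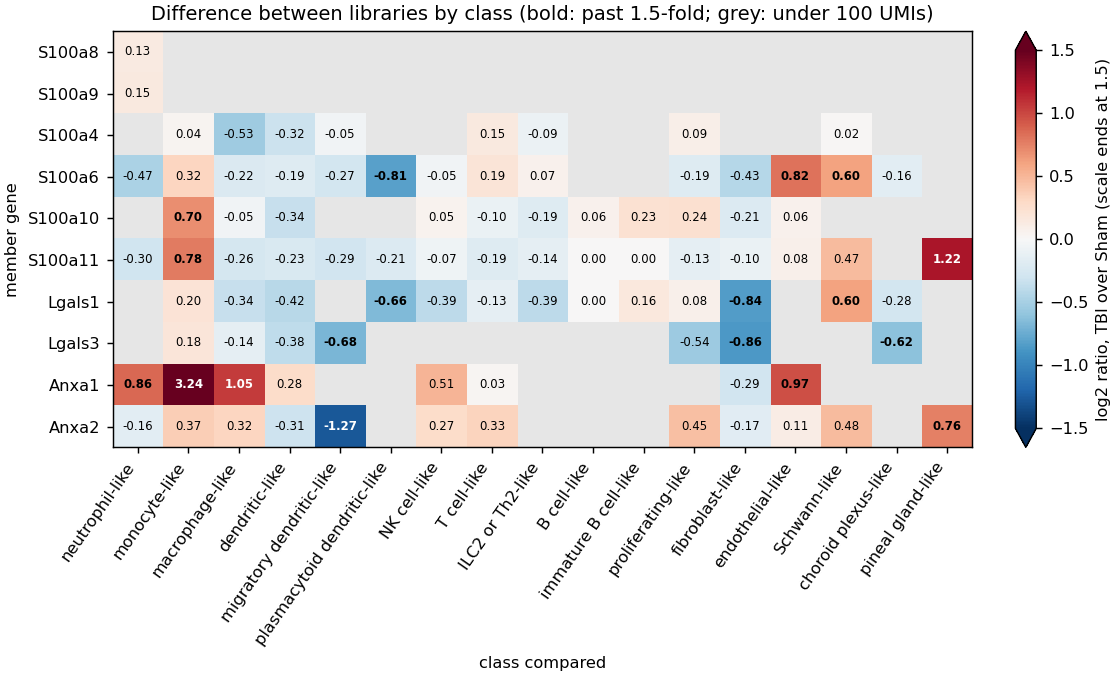
Heat map of the log2 ratio of TBI to Sham for each member (rows) in each compared class (columns), with the value printed in each cell, bold past 1.5-fold and grey under 100 UMIs, and a colour scale that ends at 1.5. Anxa1 is above 0 in 7 of its 8 classes and Lgals3 in 1 of its 7. No share of all genes is given for the Lgals3 count, so nothing is read from it.

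Anxa1 was compared in 8 classes, was higher in TBI in 7 and passed 1.5-fold in 4, the monocyte-like, macrophage-like, endothelial-like and neutrophil-like ones. Among the 897 genes compared in at least 8 classes, 5.91% were higher in at least the same share of them. Genes compared in more than 8 classes had to be higher in more of them. That share is thus not a like-for-like background, and nothing is read from it about Anxa1. Over the 17 named classes where it was above the floor, Anxa1 was higher in TBI in 13. Anxa2 was higher in 8 of 12 compared classes and in 13 of the 18 where it was above the floor. It passed the fold in 2, higher in pineal-like cells (0.76) and lower in migratory dendritic-like cells (-1.27). The pineal-like ratio changed sign at the higher Leiden resolution, to -2.14. No share of all genes is given for the Anxa2 counts or for the 13 of 17 of Anxa1, so nothing is read from them. The largest Anxa1 ratio was in monocyte-like cells. Anxa1 was there at 56.6 CPM in Sham (9 UMIs) and 563 CPM in TBI (117 UMIs), a log2 ratio of 3.24 (2.34 to 4.48). Anxa1 UMIs were in 7 of 36 Sham and 25 of 46 TBI monocyte-like cells. After thinning to 1000 UMIs per cell, 3.12% of the Sham and 37.2% of the TBI monocyte-like cells had a UMI, against 0% of the plasmacytoid dendritic-like cells of both libraries, which had median depths of 7895 and 6161 UMIs (monocyte-like, 3388 and 3368.5).
In macrophage-like cells Anxa1 was 21.49 CPM (33 UMIs) in Sham and 45.16 CPM (158 UMIs) in TBI, a log2 ratio of 1.05 (0.52 to 1.66). In endothelial-like cells it was 42.61 CPM (22 UMIs) and 84.94 CPM (92 UMIs), a log2 ratio of 0.97 (0.31 to 1.74). It was under the fold in NK-like cells (247.8 and 352.6 CPM, 0.51), dendritic-like cells (199.7 and 243 CPM, 0.28) and T-cell-like cells (120.4 and 123.1 CPM, 0.03), and was lower in fibroblast-like cells (213.7 and 176 CPM, -0.29), where 3 cells held 57.1% of the Sham UMIs.

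**Figure D4:**
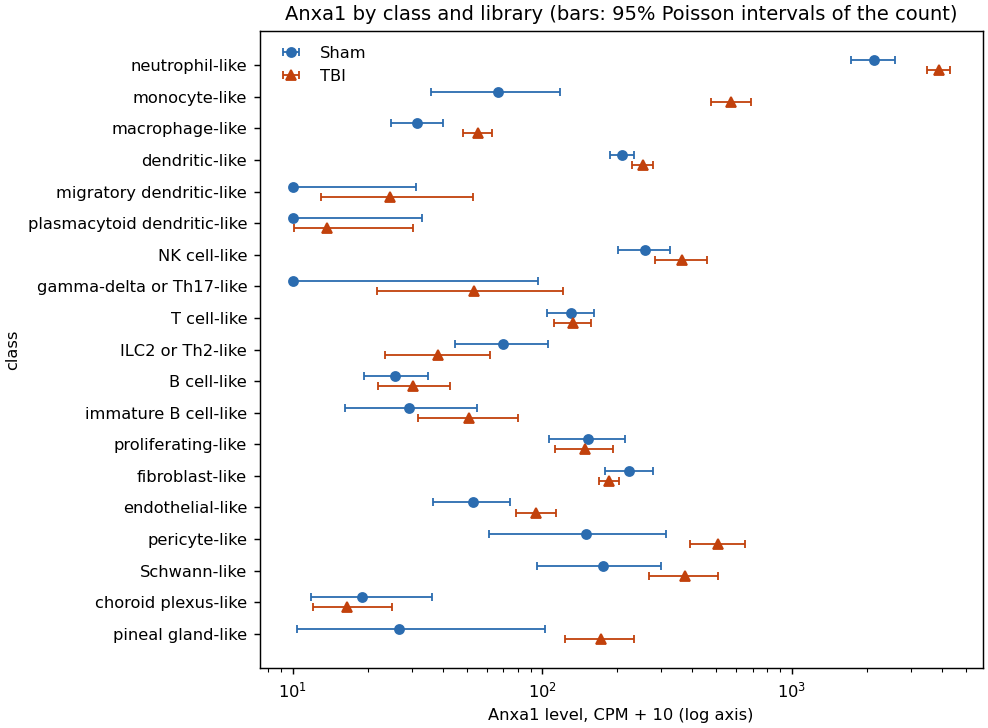
Anxa1 level in each named class in the Sham and TBI libraries, as CPM with 10 added on a log axis, with 95% Poisson intervals as bars. Before that addition, the Sham value in monocyte-like cells is 56.6 CPM and the TBI value 563 CPM, the widest gap of the compared classes.

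In the monocyte-like class all 8 members compared were higher in the TBI library, with a median log2 ratio of 0.34, where 52.9% of all genes compared were higher and their median was 0.02. S100a10 was 320.8 CPM in Sham and 524.5 CPM in TBI (0.70, 0.22 to 1.22) and S100a11, which binds Anxa1, was 415.1 and 716.9 CPM (0.78, 0.36 to 1.23). The other members there were S100a6 (1931 and 2406 CPM, 0.32), Anxa2 (748.4 and 967.1 CPM, 0.37), Lgals1 (320.8 and 370.5 CPM, 0.20), Lgals3 (1553 and 1756 CPM, 0.18) and S100a4 (974.8 and 1001 CPM, 0.04). The class differed between libraries in other genes as well. The monocyte list stood at 8352 CPM in Sham and 7150 CPM in TBI, Chil3 at 37.74 and 721.7 CPM, Ly6c2 at 1748 and 1010 CPM, Ace at 603.8 and 307.9 CPM and the complement gene C1qa at 364.8 and 24.06 CPM. A list of 8 mast cell genes stood at 81.76 CPM in Sham and 3719 CPM in TBI, and 675 of the 773 TBI UMIs were in 1 cell that had 0 Anxa1 UMIs. Without the 10 cells holding a UMI of that list (1 Sham, 9 TBI), Anxa1 was 57.69 and 499.5 CPM and the log2 ratio was 3.05 (2.12 to 4.29). The part of these differences in the members' levels was not tested.

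Macrophage-like cells fell into 3 clusters, named here by their leading gene, and the members did not move together across them. The largest cluster was the one led by Ccl8 in Sham (117 cells) and the one led by Folr2, a resident macrophage gene, in TBI (305 cells). In the Folr2-led cells 3 of 6 members compared passed 1.5-fold, all higher in TBI, against 5.72% of all genes compared there. S100a6 was 13.73 CPM (8 UMIs) in Sham and 78.19 CPM (127 UMIs) in TBI, a log2 ratio of 2.43 (1.49 to 3.75), Anxa2 was 34.32 and 88.66 CPM (1.34, 0.69 to 2.12), and Lgals3 was 39.47 and 71.42 CPM (0.83, 0.20 to 1.57). For S100a6, 3 cells held 62.5% of the Sham and 40.9% of the TBI UMIs, for Lgals3 60.9% and 31%, and for Anxa2 35% and 13.2%. After thinning, 3.74% of the Sham and 2.69% of the TBI cells had an Lgals3 UMI. The shares were 0.935% and 3.37% for S100a6 and 3.74% and 8.08% for Anxa2. S100a4 had 3 Sham and 55 TBI UMIs there, and Anxa1 3 and 43, both below the minimum of 100 UMIs. The endothelial list stood at 48.05 CPM in Sham and 145.3 CPM in TBI in that cluster, and the fibroblast list at 461.7 and 656.3 CPM.
In the Klra2-led cells 2 of 8 members passed, against 4.37% of genes. S100a4 was lower in TBI (282.8 and 182.7 CPM, -0.63, -0.88 to -0.38, and -0.55 without the 3 highest cells of each library) and Anxa1 higher (36.26 and 59.91 CPM, 0.71, 0.12 to 1.36), while S100a6 was 650.3 and 532.7 CPM (-0.29) and Lgals1 583.8 and 426.5 CPM (-0.45). In the Ccl8-led cells, which were shallow, with median depths of 852 and 999 UMIs, Lgals1 was the 1 member compared and was lower in TBI (836.5 and 555.7 CPM, -0.59, -0.99 to -0.19), against 7.49% of genes. It was -0.47 in cells of at least 1000 UMIs. In those cells S100a6 had 5 Sham and 55 TBI UMIs, 83.6% of the latter in 3 cells, and Lgals3 had 5 and 44, with 77.3% of the latter in 3 cells, so neither was compared. The choroid plexus list there was 183.2 CPM in Sham and 2149 CPM in TBI, and its part was not tested. S100a6 and Lgals3 were past the fold in the Folr2-led cells alone of the 2 clusters where they had enough UMIs, and their levels were higher in the Klra2-led than in the Folr2-led cells of both libraries.
Over the whole macrophage-like class these clusters combine, and S100a4 was 155 and 107.2 CPM (-0.53, -0.77 to -0.29), S100a6 358.8 and 308.7 CPM (-0.22), Lgals1 646 and 511.9 CPM (-0.34) and Lgals3 286.6 and 260.4 CPM (-0.14). Those class values have the sign of the Klra2-led cluster. The Folr2-led and the Ccl8-led clusters both had the opposite sign for S100a4, S100a6 and Lgals3. In the Ccl8-led cells these members, and in the Folr2-led cells S100a4, had under 100 UMIs and were not compared.

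**Figure D5:**
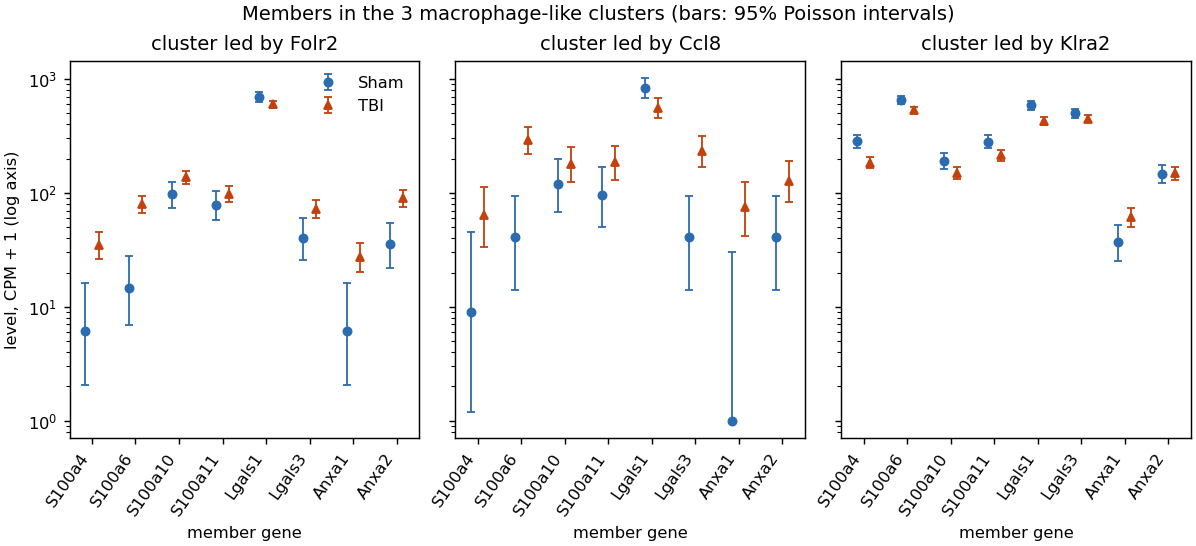
Levels of 8 members in the 3 macrophage-like clusters, as CPM with 1 added on a log axis, with 95% Poisson intervals as bars. Before that addition, S100a6 is at 13.73 CPM in Sham and 78.19 CPM in TBI in the Folr2-led cluster and at 650.3 and 532.7 CPM in the Klra2-led cluster.

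Dendritic-like cells held more UMIs per cell than most classes (median 10996 in Sham and 8385 in TBI), which lowers counting error only. Of the 8 members compared, 7 were lower in TBI and 0 passed 1.5-fold, with a median log2 ratio of -0.31, where 48.4% of all genes compared were higher and their median was -0.01. Lgals1 was 587.8 and 439.7 CPM (-0.42, -0.57 to -0.27), Lgals3 1025 and 786.2 CPM (-0.38, -0.49 to -0.27), S100a10 881 and 696.2 CPM (-0.34), S100a4 1026 and 823.2 CPM (-0.32), Anxa2 693.4 and 559.9 CPM (-0.31), S100a11 1398 and 1189 CPM (-0.23) and S100a6 2317 and 2036 CPM (-0.19). Anxa1 was the exception, at 199.7 and 243 CPM (0.28, 0.06 to 0.51). The markers of the class differed between libraries as well. The dendritic list stood at 6630 CPM in Sham and 7219 CPM in TBI, with 13 of 16 genes higher. Within it Xcr1 was 39.24 and 87.57 CPM, Clec9a 64.92 and 114.7 CPM, Cd209a 1807 and 1871 CPM and Plbd1 1117 and 1286 CPM. The genes that were lower were Clec10a (515.1 and 387.9 CPM), Itgax (127 and 113.5 CPM) and Cd209c (182.6 and 177.6 CPM). The part of these differences in the members' ratios was not tested.

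Migratory and plasmacytoid dendritic-like cells were the other dendritic classes, and both had members past 1.5-fold lower in TBI. In migratory dendritic-like cells Anxa2 was 1218 CPM in Sham and 502.6 CPM in TBI (-1.27, -1.63 to -0.93) and Lgals3 400.2 and 248.8 CPM (-0.68, -1.24 to -0.14), in 23 and 29 cells. For Anxa2, 3 cells held 55.4% of the Sham and 45.6% of the TBI UMIs, and the macrophage list stood at 354.5 and 1649 CPM in the class. With each cell weighted equally the Lgals3 ratio was -0.24. In plasmacytoid dendritic-like cells Lgals1 was 2127 and 1344 CPM (-0.66, -0.88 to -0.45) and S100a6 1048 and 598.6 CPM (-0.81, -1.13 to -0.49), in 21 and 45 cells. For S100a6, 3 cells held 59.5% of the Sham UMIs, and without the 3 cells with the most S100a6 UMIs in each library the ratio was -0.20. The Lgals1 ratio without its 3 highest cells was -0.57. The B cell list in this class stood at 3556 CPM in Sham and 5105 CPM in TBI, with 17 of 17 genes higher, and its part in both ratios was not tested.

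In the T-cell-like, NK-like and ILC2 or Th2-like cells every compared member was under the fold, with log2 ratios from -0.39 to 0.51. In T-cell-like cells S100a6 was 1287 CPM in Sham and 1465 CPM in TBI (0.19), Anxa2 321.7 and 405.8 CPM (0.33, 0.09 to 0.59), S100a4 465.9 and 518.7 CPM (0.15) and S100a10 1228 and 1145 CPM (-0.10). In NK-like cells Anxa1 was 247.8 and 352.6 CPM (0.51) with an interval from just below 0 to 1.02, and Lgals1 was 2117 and 1619 CPM (-0.39, -0.59 to -0.19), while S100a10 (1392 and 1437 CPM) and S100a6 (936.5 and 902.8 CPM) gave ratios of 0.05 and -0.05. In ILC2 or Th2-like cells Lgals1 was 238.9 and 182.8 CPM (-0.39, -0.90 to 0.13), S100a10 1114 and 975.9 CPM (-0.19) and S100a6 614.9 and 646.9 CPM (0.07). In B-cell-like cells S100a10 was 448.5 and 468.4 CPM and S100a11 431.1 and 429.9 CPM. S100a4 had 2 Sham and 22 TBI UMIs there, and S100a6 had 18 and 42, too few to compare.

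In the vascular and stromal cells the members gave mixed directions. In endothelial-like cells S100a6 was 201.4 CPM (104 UMIs) in Sham and 357.3 CPM (387 UMIs) in TBI, a log2 ratio of 0.82 (0.51 to 1.15), and after thinning 10.6% and 22.2% of the cells had an S100a6 UMI. S100a11 (391.2 and 412.7 CPM) and Anxa2 (571.3 and 616.7 CPM) differed by 0.08 and 0.11. The fibroblast list in endothelial-like cells stood at 1230 CPM in Sham and 3480 CPM in TBI, and in fibroblast-like cells it was 43444 and 42421 CPM. The macrophage list in endothelial-like cells was 377.7 and 860.5 CPM (20 of 20 genes higher), the B cell list 30.99 and 391.5 CPM and the pericyte list 71.66 and 182.8 CPM, and S100a6 in pericyte-like cells themselves was 1327 and 1566 CPM. The part of these lists in the S100a6 and Anxa1 ratios was not tested. With Leiden resolution 0.4 the S100a6 ratio was 0.55, under the fold.

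In fibroblast-like cells Lgals1 was 327.5 CPM in Sham and 183.5 CPM in TBI (-0.84, -1.13 to -0.53) and Lgals3 88.82 and 49.64 CPM (-0.86, -1.42 to -0.22). Of the Sham UMIs, 3 cells held 55.9% for Lgals1 and 71.9% for Lgals3, and without the 3 cells with the most UMIs of the gene in each library the ratios were 0.09 and -0.09. For S100a6 the ratio was -0.43 (569 and 423.7 CPM) with 71.2% of the Sham UMIs in 3 cells, and 1.07 without them. Those Sham values of the fibroblast-like class rest on a few cells. Lists of other cell types also differed in this class, with the macrophage list at 366.4 CPM in Sham and 950.7 CPM in TBI (20 of 20 genes higher), choroid plexus at 252.6 and 1195 CPM, endothelial at 655 and 293.4 CPM and pericyte at 730 and 390 CPM. Their part was not tested.

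Schwann-like cells (35 Sham and 46 TBI) were the class with the third highest S100a6, and 2 members passed there. S100a6 was 2827 CPM in Sham and 4295 CPM in TBI (0.60, 0.36 to 0.85) and Lgals1 427.5 and 653.6 CPM (0.60, -0.02 to 1.27), and the macrophage list in the class stood at 1889 and 625.6 CPM. When ratios were scaled by the median of gene ratios both were 0.49, under the fold, and without predicted doublets they were 0.53 and 0.23. In choroid plexus-like cells Lgals3 was 123 and 80.2 CPM (-0.62, -1.21 to -0.01), and -0.03 without the 3 cells with the most Lgals3 UMIs in each library. The dendritic list there was 366.1 CPM in Sham and 94.43 CPM in TBI (1 of 16 genes higher) and the macrophage list 210.1 and 884.8 CPM (20 of 20 higher), and their part was not tested. In pineal-like cells S100a11 was 299.2 and 712.6 CPM (1.22, 0.55 to 2.04) and Anxa2 266 and 463.4 CPM (0.76, 0.04 to 1.66), where 3 cells held 88.9% of the Sham S100a11 UMIs. With Leiden resolution 1.6 both ratios changed sign, to -1.74 and -2.14, and the choroid plexus list in the class stood at 45003 CPM in Sham and 5569 CPM in TBI. The pineal list stood at 1879 and 2173 CPM.

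Other genes of the families and of their receptors and partners were counted from lists chosen with earlier results of these data known. Of 73 pairs of other S100, galectin and annexin gene and class with enough UMIs, 4 passed 1.5-fold higher and 2 lower, and of 64 pairs of receptor or partner gene and class, 1 was higher and 2 lower. Over all genes the share past the fold in the classes named next was 2.75% in ILC2 or Th2-like, 5.88% in endothelial-like, 10% in proliferating, 10.5% in migratory dendritic-like, 16% in Schwann-like and 25.8% in pineal-like cells, so nothing is read from these counts about the lists. The higher ones were Anxa5 in Schwann-like cells (937.8 CPM in Sham and 1466 CPM in TBI, 0.64), Anxa4 in migratory dendritic-like cells (211.6 and 341.5 CPM, 0.68), S100a1 and Anxa5 in pineal-like cells (349.1 and 686.3 CPM, and 216.1 and 472.1 CPM) and Cd36 in endothelial-like cells (48.42 and 118.2 CPM, 1.26). The lower ones were Anxa5 in migratory dendritic-like cells (446 and 287.9 CPM, -0.63), S100a5 in pineal-like cells (5553 and 87.43 CPM), and Ahnak, a large scaffold protein bound by S100a10 and Anxa2, in ILC2 or Th2-like (270.6 and 163.1 CPM, -0.73) and proliferating cells (396.2 and 237.2 CPM, -0.74). Almost all of the S100a5 difference rests on few cells, since its 334 Sham UMIs lay in 7 cells and its 20 TBI UMIs in 1 cell. Tlr4, the receptor of S100a8 and S100a9, was highest in macrophage-like cells (39.73 and 29.72 CPM), and Fpr1 and Fpr2, formyl peptide receptors for Anxa1, were highest in neutrophil-like cells (130.1 and 215.8 CPM, and 346.9 and 172.6 CPM).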

How the data were processed

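Dorsal meninges of 5 pooled mice per condition were loaded as droplet 3′ libraries, and the deposited matrices hold whole UMI counts per gene and barcode that the authors made with Cell Ranger on mm10 (2.1.1 in the submitters' notes, 3.1.0 in the matrix header). Both libraries were read as deposited. Barcodes were kept with 150 to 5000 genes, at most 20% mitochondrial and 5% hemoglobin UMIs. Cells were clustered with 2000 variable genes, 20 principal components, 20 neighbours and Leiden resolution 0.8 (leidenalg 0.10.2), without the family genes, and clusters were named from fixed marker lists with at least 3 detected markers. Predicted doublets (33 Sham, 114 TBI) were left in. UMIs were summed per class and library, 0.5 was added for ratios, and a ratio was called at 1.5-fold with at least 100 UMIs over both libraries. Intervals are exact Poisson for levels and exact binomial for ratios and shares. Classes were compared with at least 20 cells and 50000 UMIs in each library, or as the neutrophil-like class. Genes named are the members, list genes past the fold, the neutrophil genes beside S100a8 and S100a9, and the 3 genes most correlated with each member. The members, lists and classes were chosen with earlier results of these data known, so no pattern here is independent evidence. The ratio script was tested on sums simulated with Poisson counting error alone. Uneven counts among cells were left out, so that test bears on the calculation and not on the spread of real cells.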

Additional observations from a re-analysis of the deposited data

Results flagged for a closer look

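Removed barcodes, which enter no comparison, held the S100a8 and S100a9 pair at 311.1 CPM in the TBI library (333 UMIs) and 22.28 CPM in Sham (37 UMIs), against 28.81 and 15.86 CPM in the other filtered cells. Of the TBI UMIs, 260 were in 1 barcode, 78.1% of them, that failed the hemoglobin limit.

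S100a6 passed 1.5-fold in opposite directions in 3 classes, with a log2 ratio of 0.60 in Schwann-like cells and 0.82 in endothelial-like cells but -0.81 in plasmacytoid dendritic-like cells. Anxa2 did so in 2 classes, at 0.76 in pineal-like and -1.27 in migratory dendritic-like cells. S100a6 was still past the fold in 8 of 11 other settings in Schwann-like, 9 in endothelial-like and 10 in plasmacytoid dendritic-like cells. Without its 3 highest cells in each library, the plasmacytoid dendritic-like ratio was under the fold. Anxa2 was still past the fold in 11 in migratory dendritic-like and 9 in pineal-like cells. In pineal-like cells it turned to -2.14 at the higher Leiden resolution. The differences between classes were not tested, since each rests on 1 library per condition. No share of all genes passing in opposite directions is given, so nothing is read from this about S100a6 or Anxa2.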

How the results depend on the processing

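The values of the members in the compared classes and over all cells were recomputed under other scalings, filters and clusterings. This gave 1084 results, each for 1 member in 1 class or over all cells under 1 setting. Of these, 1009 stayed within their interval, 72 moved and 3 were counted as reversed. Under settings chosen after seeing the data, 133 of 156 such results stayed, 22 moved and 1 was counted as reversed. The reversed results do not hold every change of sign. Without their 3 highest cells in each library, both the Lgals1 and the S100a6 ratio in fibroblast-like cells changed sign. Lgals1 in fibroblast-like cells became 0.11 with a mean over cells and 0.09 without the 3 cells with the most UMIs of the gene in each library. S100a11 and Anxa2 in pineal-like cells became -1.74 and -2.14 at Leiden resolution 1.6. Members past 1.5-fold over all cells were 1 in place of 0 with median ratios, with a mean over cells and with no hemoglobin limit. With no minimum of UMIs the members past the fold were 6 in B-cell-like, 3 in ILC2 or Th2-like, 3 in NK-like, 5 in Schwann-like, 2 in T-cell-like, 6 in choroid plexus-like, 2 in dendritic-like, 6 in endothelial-like, 6 in immature B-cell-like, 2 in macrophage-like, 4 in migratory dendritic-like, 2 in neutrophil-like, 6 in pineal-like, 7 in plasmacytoid dendritic-like and 2 in proliferating cells. Without that minimum S100a4 also passed in fibroblast-like cells (-0.81) and S100a9 in monocyte-like cells (1.20, with 0 Sham and 1 TBI UMIs). Schwann-like cells gave 0 with median ratios and with cells of 1000 or more UMIs and 1 without doublets. With a mean over cells the count was 1 in endothelial-like, fibroblast-like, migratory dendritic-like, pineal-like and plasmacytoid dendritic-like cells and 3 in macrophage-like cells. It was 2 in macrophage-like cells with the family genes in the clustering, 1 in fibroblast-like cells without doublets, 1 in endothelial-like and immature B-cell-like cells at Leiden resolution 0.4, 0 in pineal-like cells at 1.6, and 1 in proliferating cells with median ratios, without doublets and at 1.6. No share of all genes past the fold is given under these other settings, so nothing is read from these counts about the members. Causes were not tested except that the UMI minimum removes values with few counts. No paired analysis was possible because the groups compared share only 1 replicate number, and no library could be left out with 1 per group. Depth limits classes of few cells most.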
